A study of Caenorhabditis elegans with 8 samples.

Results

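The F-box A genes of *Caenorhabditis elegans*, named fbxa with a number, are one of the large gene families of this nematode. Those described here are the 171 fbxa genes with at least 1 array probe set assigned to them alone, out of 17118 genes measured in the series. They were read from 175 probe sets. A further 14 fbxa genes were on the array only through probe sets shared with other genes and were not analysed here. The RefSeq gene table of assembly WBcel235 lists 222 fbxa genes, and of the 171 measured ones it annotates 135 as protein coding and 36 as pseudogenes.

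An F-box protein is the substrate-binding part of a ubiquitin ligase. Its F-box binds a Skp1-like adaptor, encoded in the nematode by the skr genes, the adaptor binds a cullin scaffold, and a RING protein on the cullin brings the ubiquitin-conjugating enzyme. Most F-box A proteins join the F-box to a second domain first described in FOG-2, and for most of them no substrate is known. For FBXA-75 and FBXA-158 the partners are known: they act with the cullin CUL-6, the adaptors SKR-3, SKR-4 and SKR-5 and the RING protein RCS-1 in a ligase of the response to intracellular pathogens.

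All animals were of strain JK1107, which carries glp-1(q224) III, a temperature-sensitive allele of the receptor that keeps the germ line proliferating, and all came from parents kept at 15°C. There were 3 arrays of mixed-stage embryos released by bleach, 3 of young adults at day 1 and 2 of aging adults, called old in the labels, at day 6 of adulthood. Adults were raised at 25°C from the first larval stage, so they lacked a proliferating germ line and differed from the embryos in culture temperature as well as in stage, and these cannot be told apart. Each array held RNA of 1 pool of whole animals, given in the labels as about 5000 eggs or 3000 to 5000 adults, and more cells of a type cannot be told apart from more RNA per cell. Nothing in the labels says that the pools came from separate cultures, so p-values measure only the spread between pools.

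The deposited intensities are linear and background-subtracted, so that some are negative. For each array a noise level was taken from the sizes of its negative values (95th percentile), and the embryo arrays had noise levels between 24.4 and 27.7. Those of young adults lay between 28.7 and 35.0, and those of aging adults between 29.5 and 33.8. Array medians ran between 56.2 and 64.2 for embryos, 19.1 and 21.9 for young adults, and 32.4 and 36.9 for aging adults, and fold changes are of levels divided by these medians. This scaling shifts every gene. The middle gene of the series had a log2 fold change of 0.38 in young adults against embryos with the scaling and of -1.19 without it. It was 0.45 and -0.37 in aging adults against embryos, and -0.01 and 0.74 in aging against young adults. Stage markers bore out the labels: the yolk protein gene vit-2 read 9307 to 9660 in young adults and 9503 and 9053 in aging adults, against -7.29 to 2.00 in embryos. The maternal gene pos-1 read 86.8 and 81.5 in aging adults and -13.2 to 3.33 in young adults, against 3024 to 4044 in embryos. In young adults against embryos, 4 of 5 adult, 3 of 5 sperm, 3 of 4 intestine, 2 of 3 body wall muscle and 3 of 4 neuron marker genes were higher, and 5 of 8 embryo and 7 of 9 germ line and oocyte marker genes were lower. These counts moved with the scaling. Without it 4 adult, 1 sperm, 3 intestine, 1 body wall muscle and 0 neuron marker genes were higher. Lower without it were 7 embryo, 8 germ line and oocyte, 1 body wall muscle and 1 neuron marker genes.

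Most F-box A genes were near or below the noise. On no array did 78 of the 171 rise above it (45.6%, against 30.7% of all genes), and 16 did so on all 8 arrays (9.36%, against 32.4% of all genes). On every array of the stage, 37 members were above the noise in embryos, 33 in young adults and 52 in aging adults. As shares these are 21.6%, 19.3% and 30.4% of the members, beside 55.3%, 38% and 48.3% of all genes. The number of members above the noise on an array was 40 to 47 in embryos, 41, 37 and 53 in young adults and 59 and 57 in aging adults.

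Besides the 16 members above the noise in all 3 stages, and 2 in embryos and aging adults, there were an embryo set and an adult set. Above the noise on every embryo array and on no adult array were 17 genes. Above it on every array of both adult stages, but not on every embryo array, were 14, and on both aging adult arrays alone 20 more, of which 4 (fbxa-5, fbxa-71, fbxa-146 and fbxa-161) reached it on no other array. Only fbxa-84 was above the noise on all 3 young adult arrays and nowhere else, at 84.1, 41.4 and 61.9, beside 18.8, 13.7 and 1.5 in embryos and 11 and 7.53 in aging adults. These genes were named after their values were seen.

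**Figure D1:**
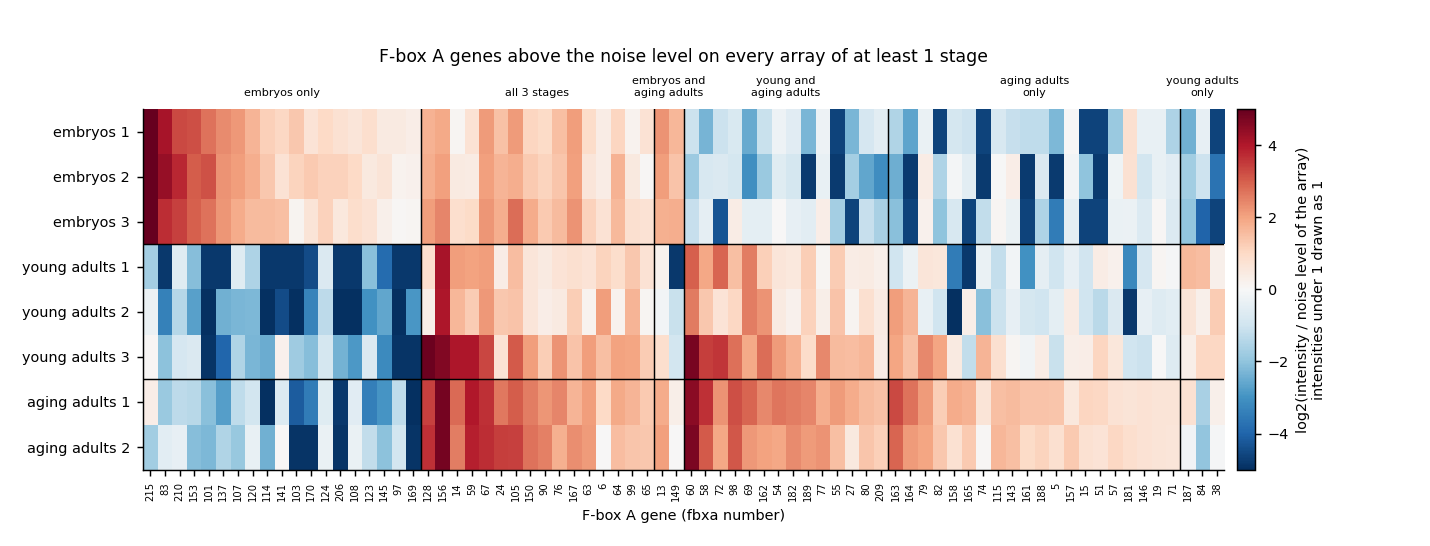
Heat map of the 74 F-box A genes above the noise level on every array of at least 1 stage. Columns are genes by fbxa number, grouped by the stages in which all arrays were above noise, rows are the 8 arrays, and colour is the log2 ratio of the intensity to the noise level of the array (red above, blue below, intensities under 1 drawn as 1). The 19 genes at the left are red only in the embryo rows, apart from some arrays of fbxa-215 and fbxa-141, and the 37 genes above noise in an adult stage but not throughout the embryos are mostly pale or blue there.

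One array stood apart within its stage, and several results below rest on it. In young adult replicate 3, the scaled level of the 33 members above the noise on all young adult arrays had a median of 0.86 above the mean of replicates 1 and 2 on the log2 scale, and 22 of the 33 were highest there. For the 6500 genes of the whole series above the noise on all young adult arrays the median was 0.16, and 46.4% were highest there. The members ranged from 17.5-fold higher than the other replicates (fbxa-128) to 0.476-fold (fbxa-187). The same array read low for body wall muscle genes, whose 3 markers were all lowest there, with the myosin gene unc-54 at 1892, against 5724 and 4860 in replicates 1 and 2. Of the 4 intestine markers 2 were highest and 2 lowest there, with the transcription factor gene elt-2 at 226, against 73.9 and 86.1 in replicates 1 and 2. The part of tissue make-up in the F-box A values was not tested.

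Against embryos, a set of F-box A genes was higher in both adult stages. By limma over all 8 arrays, with the Benjamini-Hochberg adjusted p below 0.05 counted as past the test, 64 members were higher and 16 lower in young adults than in embryos, where 53.7% of all genes were called, 31.2% higher and 22.5% lower. In aging adults 58 were higher and 12 lower than in embryos, where 45% of all genes were called, 27.1% higher and 17.8% lower. Without young adult replicate 3 the counts were 56 higher and 20 lower in young adults (29.9% and 24.2% of all genes), and 56 and 15 in aging adults (28.9% and 20.4%). As shares of the 171 members the calls over all arrays are 37.4% higher and 9.36% lower in young adults, and 33.9% higher and 7.02% lower in aging adults. The median member had a log2 fold change of 1.56 in young adults and 1.73 in aging adults against embryos, beside 0.38 and 0.45 over all genes. Without the rescaling these medians were 0 and 0.92 for the members, and -1.19 and -0.37 over all genes. The 1.56 is also the value of fbxa-40, which was negative on all 8 arrays and entered the fit at the floor, so it includes the scaling. Both comparisons share the embryo arrays.

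Not all of these calls are measured differences. Of the 64 called higher in young adults, 31 were above the noise on every young adult array, 15 were above it on no array of either group, and 10 turned direction without the rescaling. Of the 58 called higher in aging adults, 43 were above the noise on both aging adult arrays, 12 allow no fold, and 0 turned direction without the rescaling or under quantile normalization. Without the rescaling, 29 members were higher and 28 lower in young adults than in embryos, where 12.7% and 38.7% of all genes were, and 37 higher and 16 lower in aging adults, where 14.7% and 26.2% were. Counted on the deposited intensities with no model, 73 members (42.7%) were higher on both aging adult arrays than on every embryo array, where 27.4% of all genes were. In young adults 40 members (23.4%) were higher on every array, where 17.1% of all genes were. Lower on every array were 37 members (21.6%) in aging adults and 47 (27.5%) in young adults, where 43.4% and 47% of all genes were. On the scaled levels 102 members (59.6%) were higher in aging adults and 77 (45%) in young adults, where 44.4% and 38.7% of all genes were, and 27 (15.8%) and 25 (14.6%) were lower, where 29.8% and 27.5% were.

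**Figure D2:**
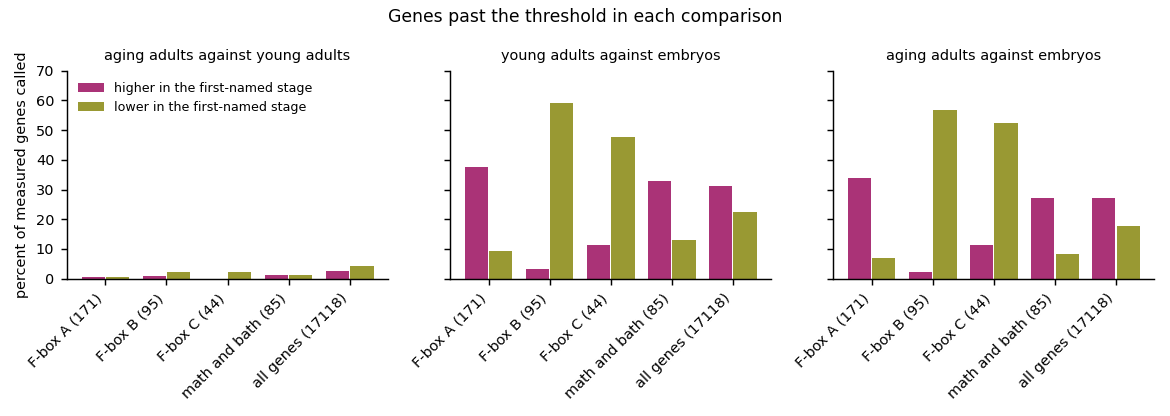
Percent of measured genes called higher (purple) or lower (olive) in the first-named stage of each comparison, by limma at an adjusted p below 0.05, for 3 F-box families, the math and bath genes and all 17118 genes (numbers measured in brackets). F-box A genes were called more often higher than lower against embryos, F-box B and F-box C genes more often lower, and few of any family were called between the adult stages.

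F-box A genes often sit next to each other. By the WBcel235 gene order, 94 of the 171 members (55.0%) lie in runs of 2 or more neighbouring fbxa genes, and the longest of the 41 runs holds 10. Of the 52 members above the noise on both aging adult arrays, 33 (63.5%) lie in runs. Locus names that share a clone mark such neighbourhoods. The 12 members of clone T12B5 on chromosome III included 6 above the noise on both aging adult arrays, the 9 of clone C08E3 on chromosome II also 6, and the 7 of clone Y82E9BL on chromosome III all 7. All 3 members of clone Y119D3B on chromosome III were above it too, and 2 of the 6 of F47H4 on chromosome V. Further clones held few or none, with 0 of 5 in C38D9, 0 of 5 in C39B5, 0 of 4 in Y119D3A, 0 of 4 in Y37H2A and 1 of 5 in T20H9. Neighbours can be near copies, and whether a probe set also binds a neighbour's RNA was not tested. For 18 members a probe set bears a suffix (_s_at or _x_at) that marks a possible match to several transcripts, and of those named below these are fbxa-24, fbxa-58, fbxa-60, fbxa-67, fbxa-69, fbxa-93, fbxa-101, fbxa-136, fbxa-156, fbxa-161, fbxa-206 and fbxa-215.

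In clone T12B5, fbxa-60 (T12B5.10) had the widest separation of the stages. Its intensities were 11.7, 7.77 and 11.1 in embryos, 229, 213 and 804 in young adults and 770 and 773 in aging adults. No embryo array was above the noise and every adult array was at least several times above it. This was at least 39.3-fold higher in young adults (adjusted p = 6.13e-05) and at least 53.2-fold higher in aging adults (adjusted p = 0.000112), each taken against the embryo noise level.

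In the same clone, though not adjoining it, fbxa-59 (T12B5.8) read 40.8, 36.8 and 47.8 in embryos, 117, 83.5 and 490 in young adults and 546 and 441 in aging adults. It was above the noise on all 8 arrays and was 12-fold higher in young adults (adjusted p = 0.00200) and 20.8-fold higher in aging adults (adjusted p = 0.00190) than in embryos. Replicate 3 was the high young adult array, and without it the gene was 7.25-fold higher in young adults than in embryos (adjusted p = 0.000294). For fbxa-67 (T12B5.11) the embryo arrays read 109, 116 and 113, the young adult arrays 122, 158.4 and 302 and the aging adult arrays 422 and 380. On these intensities the stages did not overlap, but on the scaled levels young adult replicate 3 lay above both aging adult arrays. By the scaled levels fbxa-67 was 4.72-fold higher in young adults (adjusted p = 0.000559) and 6.27-fold higher in aging adults (adjusted p = 0.000586) than in embryos. Without the rescaling the call in young adults was lost.

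Also in this clone, fbxa-51 (T12B5.1) read -11.7, -9.28 and -16.6 in embryos, 37.6, 13.7 and 62.5 in young adults and 68.7 and 47.3 in aging adults. The embryo values were all negative, 2 of the young adult arrays and both aging adult arrays were above the noise, and the gene was at least 3.68-fold higher in young adults and at least 3.93-fold higher in aging adults (adjusted p = 7.63e-05 and 0.000172). For fbxa-55 (T12B5.6) the values were -3.06, -2.53 and 7.53 in embryos, 69.5, 92.9 and 89.2 in young adults and 150 and 83.8 in aging adults. Here the 3 young adult arrays read alike, with no high replicate 3. It was at least 9.63-fold higher in young adults (adjusted p = 0.00749) and at least 7.72-fold higher in aging adults (adjusted p = 0.0175).

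In clone C08E3, 3 genes had their lowest young adult value on the same array. The protein coding fbxa-163 (C08E3.6) read 8.68, 5.05 and 5.76 in embryos, 14.3, 148 and 118 in young adults and 333 and 221 in aging adults. In the same clone, fbxa-164 (C08E3.7) read 3.94, -0.239 and -10.3 in embryos, 23.1, 114 and 83.1 in young adults and 225 and 130 in aging adults. The pseudogene fbxa-162 (C08E3.5) read 11.3, 7.69 and 17.6, then 65.2, 167 and 206, then 177 and 119.3 in the same order. In all 3 the low young adult array was replicate 1, whose values for fbxa-163 and fbxa-164 were below the noise, and no embryo array was above it.

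The folds against embryos were at least 7.30 for fbxa-163, at least 6.97 for fbxa-164 and at least 15.2 for fbxa-162 in young adults (adjusted p = 0.00246, 0.00648 and 0.000151). In aging adults they were at least 18.7, at least 11.8 and at least 10.01 (adjusted p = 0.00187, 0.0103 and 0.000632). The pseudogene fbxa-161 (C08E3.4) was above the noise in aging adults alone, at 91.9 and 57.4, against 3.49, 19 and 26.4 in young adults and 10.1, -1.60 and -0.848 in embryos. It was at least 5.01-fold higher in aging adults than in embryos (adjusted p = 0.0331), and this call was lost without the rescaling.

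Of the 2 members with known ligase partners, fbxa-158 (C08E3.10) also lies in this clone. Its intensities were 13.4, 25.9 and 13.9 in embryos, 2.54, -2.89 and 41.5 in young adults and 123 and 49.8 in aging adults. It was above the noise on both aging adult arrays and on young adult replicate 3 only. No comparison passed the test, with adjusted p = 0.344 against young adults and 0.472 against embryos in aging adults, and young adult replicate 2, below 0, entered the fit at the floor. The other, fbxa-75 (Y119D3A.1), was above the noise on 1 array, at 50.9 and 8.87 in aging adults, 4.31, -4.17 and 7.97 in young adults and 6.27, 7.84 and 2.68 in embryos. It passed no test either.

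Clone Y82E9BL held fbxa-14 (Y82E9BL.10), which read 26.6, 38.2 and 44.2 in embryos, 123, 110 and 496 in young adults and 241 and 175 in aging adults. It was above the noise throughout, 15.7-fold higher in young adults (adjusted p = 0.000837), or 9.99-fold without replicate 3 (adjusted p = 0.000176), and 10.2-fold higher in aging adults (adjusted p = 0.00413). Of the same clone, fbxa-5, fbxa-15 and fbxa-27 were not above the noise on any embryo array, and in aging adults they read 88.6 and 52.1, 71.2 and 50.3, and 124 and 41.7. Bounds in aging adults against embryos were at least 4.68-fold for fbxa-5 and 4.13-fold for fbxa-15 (adjusted p = 0.0410 and 0.0250), and fbxa-27, with its unequal arrays, did not pass the test there (adjusted p = 0.0682). The call of fbxa-5 was lost without the rescaling, and without young adult replicate 3 (adjusted p = 0.0590).

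The adult set was not confined to the clones. On chromosome V, fbxa-156 (C06H5.1) had the smallest p-value of any member, and its intensity averaged 607 ± 124 in young adults (SD, n = 3) and 881 ± 85.4 in aging adults (SD, n = 2), against 112 ± 19.6 in embryos (SD, n = 3). Single values were 504, 573 and 745 in young adults, 942 and 821 in aging adults and 91.9, 114 and 131 in embryos, with no overlap between embryos and adults. After scaling it was 15.9-fold higher in young adults (limma adjusted p = 6.21e-06, log2 fold change 4 with SE 0.15) and 13.9-fold higher in aging adults (adjusted p = 1.87e-05, 3.80 with SE 0.17).

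Also on V, fbxa-69 (F54B8.3) read 4.33, 3.32 and 17.3 in embryos, 171, 204 and 113 in young adults and 252 and 131 in aging adults. It was at least 18.3-fold higher in young adults and at least 12.5-fold higher in aging adults (adjusted p = 0.000237 and 0.000856), and its young adult replicate 3 was the lowest of the 3. For fbxa-72 (F31F4.15) the adult arrays were uneven, at 217, 56.3 and 354 in young adults and 162 and 112 in aging adults, against 11.6, 16.7 and 1.23 in embryos. It was nevertheless at least 18.9-fold higher in young adults and at least 9.26-fold higher in aging adults (adjusted p = 0.00278 and 0.0135). The pseudogene fbxa-58 (C29F9.11, chromosome III) read 109, 89.8 and 334 in young adults and 422 and 250 in aging adults, against 4.99, 15.9 and 17.8 in embryos. It was at least 17.2-fold and at least 22.4-fold higher in young and aging adults (adjusted p = 0.000408 and 0.000687).

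The other members named for a large rise had lower signals. In fbxa-38 the young adult arrays read 33.8, 84.0 and 61.7 and the aging adult arrays 40.8 and 28.1, the second below its noise, with embryos at -3.39, 2.12 and -0.205. Of clone F47H4, fbxa-187, a pseudogene, and fbxa-189 read 88.7, 55.3 and 36.5, and 66.9, 77.4 and 57.2 in young adults. In aging adults the first read 57.9 and 25.97, the second of these below its noise, and fbxa-189 read 184 and 127.97. All embryo values of both were below the noise. Bounds in young adults against embryos were at least 6.48-fold for fbxa-38, 6.53-fold for fbxa-187 and 7.72-fold for fbxa-189 (adjusted p = 0.00338, 0.000257 and 0.0413), and the call of fbxa-189 was lost without the rescaling, and without young adult replicate 3 (adjusted p = 0.0821). In aging adults fbxa-82 and fbxa-74 reached 79.0 and 75.6, and 53.1 and 30.8, at least 5.33-fold and 2.79-fold higher than in embryos (adjusted p = 0.0228 and 0.0441), and both calls were lost without the rescaling. That of fbxa-74 was also lost without young adult replicate 3 (adjusted p = 0.0583).

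**Figure D3:**
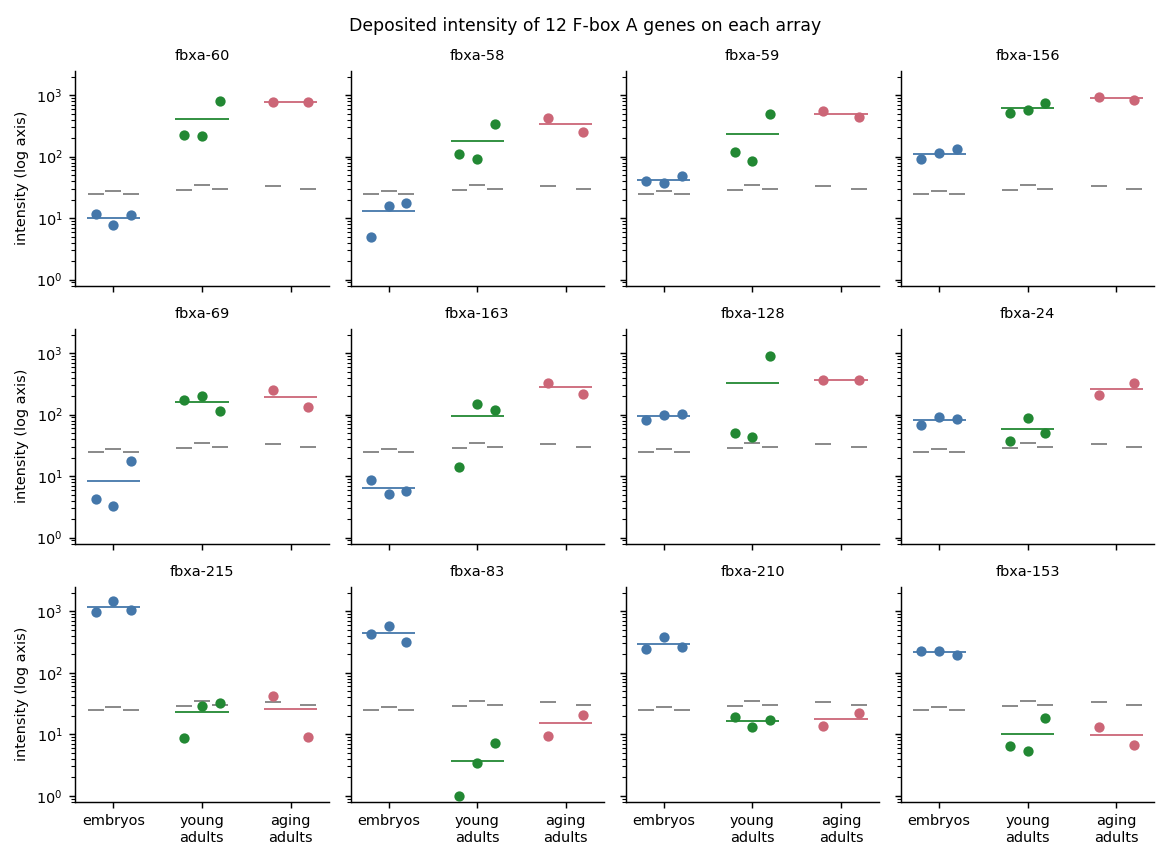
Deposited intensity (log axis) of 12 F-box A genes on each of the 8 arrays. Points are arrays, coloured lines are stage means, grey ticks are the noise level of each array, and values under 1 are drawn at 1. In the first 6 genes every embryo point lies below the adult points, in the last 4 every embryo point lies above them (195 to 1469 in embryos), and fbxa-128 has 1 young adult array at 900 against 50.9 and 43.2.

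Several members above the noise on all 8 arrays changed direction with the scaling. In young adults fbxa-24, fbxa-64, fbxa-76, fbxa-90 and fbxa-167 were 2.00-fold, 2.63-fold, 2.80-fold, 2.66-fold and 1.81-fold higher than in embryos by the scaled levels (adjusted p = 0.0465, 0.0253, 0.0241, 0.00190 and 0.0178), and without the rescaling all 5 had a lower mean in young adults. The call of fbxa-24 was also lost without young adult replicate 3 (adjusted p = 0.0601). The intensities of fbxa-167 (C31C9.3), for example, were 49.5, 81.8 and 80.5 in young adults, all below the 104, 116 and 117 of the embryos. In aging adults the mean of these 5 was higher than in embryos on either scale, and on the scaled levels it was higher by 5.67-fold, 2.59-fold, 3.33-fold, 5.18-fold and 2.00-fold (adjusted p = 0.00215, 0.0466, 0.0253, 0.000406 and 0.0189). Without the rescaling, fbxa-64, fbxa-76 and fbxa-167 did not pass the test there. The members fbxa-63 and fbxa-105 were 3.82-fold and 3.09-fold higher in young adults and 5.07-fold and 4.36-fold higher in aging adults than in embryos (adjusted p = 0.00650, 0.0146, 0.00602 and 0.00982). In both genes both calls were lost without the rescaling.

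Fewer members were called lower than higher in adults against embryos. Those named here were at or near the noise in both adult stages. The gene fbxa-215 (Y45F10C.3, chromosome IV) read 8.73, 28.3 and 31.6 in young adults and 42.2 and 8.95 in aging adults, against 985, 1469 and 1029 in embryos. Above the noise were 1 of the 3 young adult and 1 of the 2 aging adult arrays. With the arrays below the noise at their own values, it was 19.5-fold lower in young adults (limma adjusted p = 0.00120, log2 fold change -4.28 with SE 0.64) and 33.4-fold lower in aging adults (adjusted p = 0.00135, -5.06 with SE 0.71). With them raised to the noise level, its log2 fold changes were -3.61 and -4.20. Also on IV, fbxa-83 (Y67A10A.4) read 0.431, 3.39 and 7.31 in young adults and 9.37 and 20.7 in aging adults, against 431, 574 and 312 in embryos. With no adult array above the noise, it was at least 4.62-fold lower in young adults and at least 7.65-fold lower in aging adults (adjusted p = 0.00196 and 0.0228).

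On chromosome V, fbxa-210 (Y37H2A.5) read 19.1, 13.0 and 16.8 in young adults and 13.5 and 22.3 in aging adults, against 243, 377 and 262 in embryos. Its neighbour in the same clone, fbxa-107 (Y37H2A.4), read 18.7, 7.20 and 10.7, and 13.9 and 7.94, against 110, 118.7 and 88.1. Both were below the noise on every adult array. They were at least 3.13-fold and at least 1.14-fold lower in young adults (adjusted p = 0.000598 and 0.0210), and at least 5.19-fold and at least 1.88-fold lower in aging adults (adjusted p = 0.000492 and 0.00757). For fbxa-153 (B0391.5) the adult values were 6.54, 5.31 and 18.3 in young and 12.9 and 6.77 in aging adults, against 227, 227 and 195 in embryos, at least 2.34-fold and at least 3.88-fold lower (adjusted p = 0.00176 and 0.00179).

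On chromosome I, fbxa-101 (F08A8.7) was negative on all 3 young adult arrays, at -4.50, -4.93 and -8.25, and read 8.04 and 6.18 in aging adults, against 160, 249 and 160 in embryos. It was at least 2.01-fold lower in young adults and at least 3.33-fold lower in aging adults than in embryos (adjusted p = 5.79e-05 and 0.0215). The remaining members named for a fall were dimmer. Embryo means were 123 ± 8.60 for fbxa-137, 83.8 ± 12.4 for fbxa-120, 66.8 ± 8.93 for fbxa-114 and 48.2 ± 16.9 for fbxa-170 (SD, n = 3 each). For fbxa-206, fbxa-97 and fbxa-169 they were 46.2 ± 13.4, 30.0 ± 3.96 and 29.8 ± 3.10 (SD, n = 3 each). All 7 were below the noise on the 5 adult arrays, with single values from -7.97 to 23.1, and fbxa-137 was at least 1.34-fold lower in young adults (adjusted p = 0.0488, or 0.0563 without replicate 3), while the scaled signal of the rest allows no fold there.

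The chromosomes differed in which set they held. Of the 27 members on chromosomes I and X, 9 were above the noise on every embryo array and 0 on every array of either adult stage, where among all genes of these chromosomes 63.3% were in embryos, 42.5% in young adults and 53.6% in aging adults. Of the 64 members on II and III, 11 were in embryos, 19 in young adults and 33 in aging adults, shares of 17.2%, 29.7% and 51.6% beside 61.3%, 39.5% and 50.5% of all genes. Chromosome V, with 74 members, had 15, 13 and 18, shares of 20.3%, 17.6% and 24.3% beside 38.8%, 29.6% and 38.3% of all its genes. Of the calls, on II and III 36 members were higher and 1 lower in young adults than in embryos, where 28.3% and 27% of all their genes were. On I 0 were higher and 3 lower, where 23.7% and 30.2% of all genes were, and on X 4 were higher and 2 lower, where 37.4% and 19.9% were. Of the 4 on X, fbxa-17 and fbxa-40 were above the noise on no array, and fbxa-53 and fbxa-190 on 1 young adult array each. On V 23 were higher and 8 lower, where 34.3% and 14.3% of all genes were. These counts are a description, since neighbouring genes are not independent. Of the 36 pseudogenes, 12 were called higher and 2 lower in young adults, and 12 higher and 0 lower in aging adults than in embryos. Beside these stand the shares of all genes, 31.2% higher and 22.5% lower in young adults, and 27.1% higher and 17.8% lower in aging adults. The share of pseudogenes called higher in young adults is near that of all genes. Among those called higher in both adult stages were fbxa-159 and fbxa-177, which were negative on all 8 arrays, so not all of these calls are measured differences. On every array of the stage 3 pseudogenes were above the noise in young adults and 6 in aging adults.

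**Figure D4:**
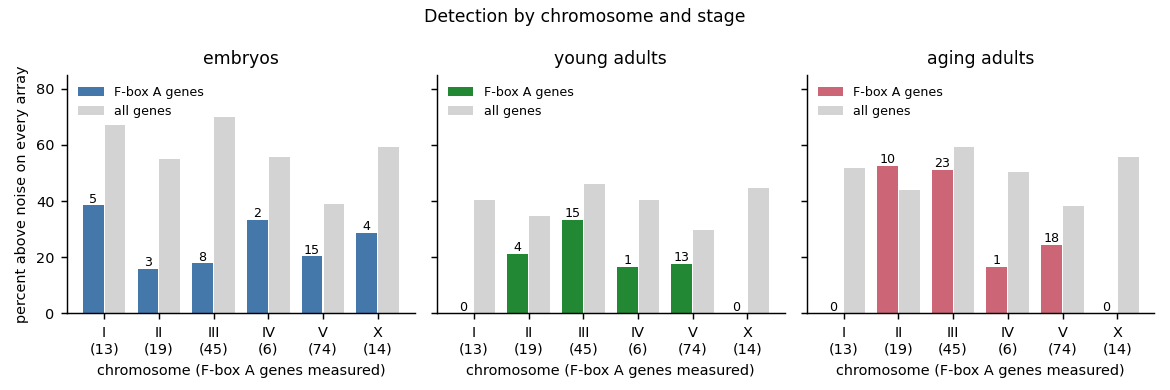
Percent of F-box A genes (coloured, with their number above the bar) and of all genes (grey) above the noise level on every array of a stage, by chromosome, with the number of F-box A genes measured in brackets. The coloured bars on I and X are present in embryos, with 5 and 4 genes, and at 0 in both adult stages, while those on II and III are tallest in aging adults, with 10 and 23 genes.

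Between the adult stages few members passed the test. By limma 1 was higher and 1 lower in aging than in young adults, fbxa-101 and fbxa-201, where 7.18% of all genes were called, 2.74% higher and 4.44% lower, and both were below the noise in both stages. At an unadjusted p below 0.05, 16 members were higher and 10 lower, where 10.2% and 13.8% of all genes were. On the deposited intensities 69 members (40.4%) were higher and 8 (4.68%) lower on every array, where 42% and 8.06% of all genes were. The scaled levels of 33 members (19.3%) were higher on both aging adult arrays than on every young adult array and of 25 (14.6%) lower, where 17.2% and 27.5% of all genes were. The shares of members higher are thus near those of all genes. The count depended on the scaling and on low values, with 9 higher and 2 lower without the rescaling, where 15.9% and 1.9% of all genes were, and 8 higher and 4 lower with a pseudocount, where 3.56% and 5.4% were.

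The count also rested on young adult replicate 3. Without that array, 14 members were higher and 3 lower in aging than in young adults, where 6.41% and 5.29% of all genes were, and 8 of the 14 were above the noise on both aging adult arrays. The share of all genes called higher rose as well, from 2.74% over all arrays to 6.41% without replicate 3. Without either of the other young adult arrays the count of members was 2 or 3 higher and 1 or 2 lower. For those fits the share of all genes was not counted, so the contrast is not shown to be particular to the family. One of these 8 was fbxa-128 (Y47D3A.2). Its intensities were 361 and 372 in aging adults and 50.9, 43.2 and 900 in young adults, with 82.0, 97.9 and 103 in embryos. Its log2 fold change in aging against young adults was 0.80 over all arrays (SE 1.19, adjusted p = 0.738) and 2.18 without replicate 3 (SE 0.19, adjusted p = 0.00289). For fbxa-59 the same values were 0.79 (adjusted p = 0.524) and 1.52 (adjusted p = 0.0203), and for fbxa-67 0.41 (adjusted p = 0.482) and 0.74 (adjusted p = 0.0260).

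The gene fbxa-24 (F54D10.2, chromosome II) read 208 and 324 in aging adults, against 37.04, 88.4 and 49.5 in young adults. The stages did not overlap, and it was 2.84-fold higher with adjusted p = 0.0724 (log2 fold change 1.5, with SE 0.39). For fbxa-90 (Y102A5C.19) the arrays read 155 and 171 in aging adults, against 39.2, 44.3 and 70.3 in young adults, 1.95-fold higher with adjusted p = 0.0787 (log2 fold change 0.96, with SE 0.26). It passed the test without replicate 3 (1.17, adjusted p = 0.0180). Other members near the threshold were lower in aging adults. For fbxa-6, above the noise on all 8 arrays, the log2 fold change was -1.78 (limma adjusted p = 0.0576). Its arrays read 68.3 and 29.7 in aging adults, against 61.9, 147 and 85.6 in young adults. For fbxa-88, below the noise in aging adults, it was -2.34 (adjusted p = 0.0713). The bright adult genes did not differ past the test between the adult stages: the log2 fold change in aging against young adults was -0.19 (SE 0.17, adjusted p = 0.543) for fbxa-156, 0.44 (SE 0.56, adjusted p = 0.693) for fbxa-60 and -0.55 (SE 0.72, adjusted p = 0.705) for fbxa-69.

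The known partners of the F-box A ligase were measured on the same arrays. The cullin gene cul-6 read 59.96, 74.7 and 101 in embryos, 55.5, 55.6 and 374 in young adults and 771 and 516 in aging adults. The adaptor gene skr-4 read 33.6, 31.3 and 47.4, then 474, 433 and 1064, then 1296 and 841, and rcs-1 read 50.8, 73.5 and 97.8, then 94.5, 73.1 and 211, then 342 and 328. Young adult replicate 3 was the highest young adult array for all 5 partner genes, as for 22 of the 33 F-box A genes above. All 5 were higher in both adult stages than in embryos, by 4.04-fold and 14.5-fold for cul-6 (adjusted p = 0.0455 and 0.00694), 48.4-fold and 50.0-fold for skr-4 (adjusted p = 3.16e-05 and 7.42e-05) and 4.69-fold and 8.25-fold for rcs-1 (adjusted p = 0.00263 and 0.00146) in young and aging adults. The intensities of cul-6 on young adult replicates 1 and 2 lay below every embryo array. Its 4.04-fold thus includes the scaling and replicate 3, whose scaled level was 2.62 above the mean of the other young adult arrays on the log2 scale. Without the rescaling 2 of the 5 passed the test in young adults and 4 in aging adults, all higher.

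None of the 5 passed the test in aging against young adults, and at an unadjusted p below 0.05 limma also called 0 of them. In all 5, the scaled level on young adult replicate 3 was above that of at least 1 aging adult array. For cul-6 it was 2.62 above the mean of young adult replicates 1 and 2, beside 2.91 and 2.52 in aging adults. For these genes no fit without replicate 3 is given here. Of the 23 pals genes, a nematode family induced with cul-6 in that pathogen response, 9 were higher and 0 lower in aging adults than in embryos, and 3 were higher in aging than in young adults. The shares higher are 39.1% and 13.0%, beside 27.1% and 2.74% of all genes. In young adults 6 were higher and 3 lower than in embryos, shares of 26.1% and 13.0% beside 31.2% and 22.5% of all genes. Only 2 pals genes were above the noise on all young adult arrays, and both were highest on replicate 3. One of them, pals-23, read 101, 121 and 498 in young adults, beside 511 and 324 in aging adults. Of the 12 cofactor genes of cullin ligases in general, 1 was higher and 10 were lower in young adults than in embryos, of the 6 cullin genes 1 was higher and 4 lower, and of the 19 skr genes 5 were higher and 11 lower. Among all genes 31.2% were higher and 22.5% lower there.

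**Figure D5:**
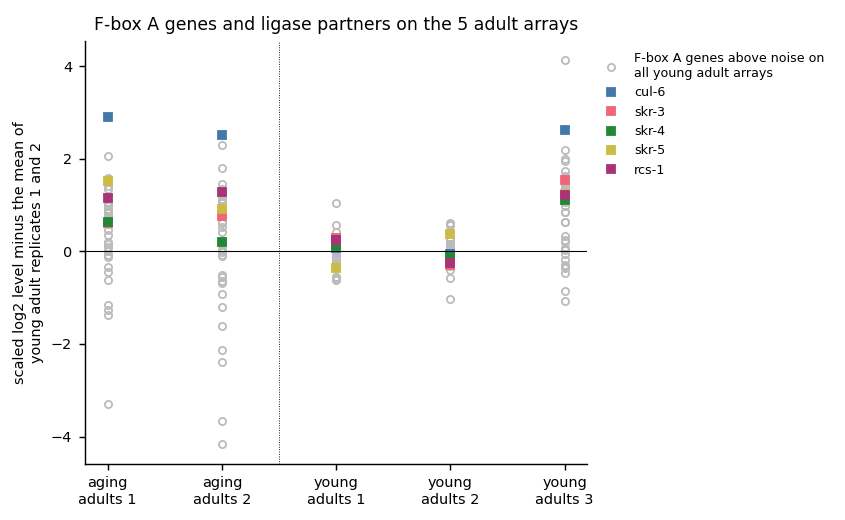
Scaled log2 level on the 5 adult arrays minus the mean of young adult replicates 1 and 2, for the 33 F-box A genes above the noise level on all young adult arrays (open circles) and 5 partner genes of the pathogen response ligase (squares). In young adult replicate 3 all 5 partner genes lie above the line at 0, and the F-box A genes have a median of 0.86 and reach 4.13 for fbxa-128.

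In the sister families more genes were lower than higher in adults. Of 95 F-box B genes, 3 were higher and 56 lower in young adults than in embryos, and of 44 F-box C genes 5 were higher and 21 lower. As shares these are 3.16% and 58.9%, and 11.4% and 47.7%, beside 31.2% higher and 22.5% lower of all genes. The F-box B gene fbxb-15 read -12.2, -0.450 and -9.49 in young adults and -21.5 and -26.1 in aging adults, against 460, 582 and 392 in embryos, at least 5.12-fold and 8.48-fold lower (adjusted p = 4.76e-05 and 9.35e-05). The 85 math and bath genes, whose bath members are adaptors of the cullin CUL-3, had 28 higher and 11 lower with the scaling and 14 higher and 16 lower without it. With the scaling 32.9% were thus higher, near the 31.2% of all genes, and 12.9% lower. Without it 12.7% of all genes were higher and 38.7% lower. No test of the difference between families was made. Among 11 single F-box genes with studied roles, 2 were higher and 7 lower in young adults than in embryos, with fog-2, which acts in hermaphrodite germ line sex determination, at least 2.15-fold lower (adjusted p = 5.50e-05).

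For 4 members several probe sets could be set side by side. In fbxa-150 (Y38H6C.11) one was above the noise on all 8 arrays, at 109, 131 and 172 in embryos, 82.9, 98.3 and 254 in young adults and 388 and 385 in aging adults. The other was above it on none, with values from -5.94 to 11.5, so that the gene's fitted value averages a signal and noise and no fold is given. In fbxa-93, fbxa-136 and fbxa-214 the probe sets were below the noise, apart from 1 embryo array of fbxa-136 at 32.5.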

How the data were processed

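RNA of pooled glp-1 nematodes had been hybridised to Affymetrix C. elegans Genome arrays, and the authors read the scans with the GeneChip Operating Software before analysis in Rosetta Resolver. Linear, background-subtracted intensity values deposited by the authors cover 22548 probe sets on 8 arrays. A second deposited table of fold changes and p-values from the authors' own comparisons was not used. Groups came from the sample titles.

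Intensities under 0.01 were raised to 0.01, divided by the array's median and taken to log2. Genes were read as the median of those probe sets that the array annotation gives to 1 gene alone (20766 probe sets, 17118 genes). All 8 arrays were fitted with limma 3.58.1 in R 4.3.3, with a variance trend and no covariates, with Benjamini-Hochberg adjustment across the 17118 genes and a threshold of 0.05. The fit was also run on simulated arrays with known changes, drawn from normal distributions. These held no values set to the floor and no difference in array medians, so that run cannot judge calls near the noise. "At least" folds set the dim group at its noise level, or at its own value where higher, and no fold is given where this is under 1, where both groups were below noise, or where a value was at or below 0 in a group partly above noise. The number of arrays limits the precision.

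Up to 10 members in each direction of a comparison were named by size of change, among those past the test, not overlapping and above noise in the higher group, with up to 12 above noise on all arrays, fbxa-75, fbxa-158 and up to 4 with discordant probe sets. From related lists (F-box B and C, pals, math and bath, skr, cullins, cullin cofactors, other F-box genes, ligase partners, stage and tissue markers) examples were taken. Members and lists were chosen with earlier results of these data known. Alternatives were other scalings, low-value treatments, filters, fits, probe sets and thresholds, a replicate block, and each array left out. Chromosomes and gene order are those of WBcel235, and no sequence was used here.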

Additional observations from a re-analysis of the deposited data

How the results depend on the processing

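The values divide by array medians that lie below the noise in young adults, so counts moved with the scaling and with the treatment of low values. Without rescaling, 9 members were higher and 2 lower in aging than in young adults, 29 higher and 28 lower in young adults than in embryos, and 37 higher in aging adults than in embryos. Raising values to the noise level of each array before scaling gave 9 and 121, 161 and 5, and 155 higher. The noise level exceeds the median in young adults and not in embryos, so genes at the noise differ there by construction. Among alternatives chosen after seeing the data, that floor without rescaling gave 33 and 2, 124 higher and 135 higher. One floor for all arrays, at their highest noise level, without rescaling gave 18 and 0, 14 higher and 35 higher. At an unadjusted p below 0.001 there were 32 higher and 5 lower in young adults, and 26 higher and 3 lower in aging adults, against embryos. Between the adult stages the count was 8 and 4 with a pseudocount of 0.1, 5 higher with only the 2 groups fitted, 2 higher with the noise filter, and 2 lower under quantile normalization. Without probe sets that may match several transcripts it was 0 higher, and 9 were lower in young adults than in embryos.

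Leaving out 1 array at a time gave 2 to 14 higher and 0 to 3 lower in aging than in young adults. Against embryos it gave 55 to 56 higher and 9 to 20 lower in young adults, and 34 to 57 higher and 6 to 15 lower in aging adults. Those counts of 34 came without aging adult replicate 1 or 2, the 6 without aging adult replicate 2, and the counts of 14, 15 and 20 without young adult replicate 3. Without embryo replicates 2 and 3, 9 and 10 were lower in young adults. The lone aging adult array is then assumed to vary like the other groups.

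Deviations of same-numbered arrays from their stage means had correlations of -0.014 to 0.027. With so few arrays per stage, the deviations within a stage are tied to each other. These correlations therefore cannot decide whether same-numbered pools shared culture or processing. The replicate block gave 1 higher and 0 lower in aging than in young adults, 59 and 11 in young adults and 47 and 9 in aging adults against embryos.

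Directions turned without rescaling, and under either floor without rescaling, for fbxa-24 (-0.56), fbxa-64 (-0.17), fbxa-76 (-0.080), fbxa-90 (-0.16) and fbxa-167 (-0.71) in young adults against embryos. With the noise floor, log2 fold changes in young adults against embryos turned to 1.63 for fbxa-97, 0.47 for fbxa-114, 0.15 for fbxa-120, 1.78 for fbxa-136, 1.63 for fbxa-169 and 1.03 for fbxa-206. They turned to 0.91 for fbxa-169 and 0.26 for fbxa-170 in aging adults against embryos, and to -0.73 for fbxa-101 between the adult stages. With that floor unscaled, fbxa-97, fbxa-136 and fbxa-169 had 0.062, 0.22 and 0.070 in young adults, and fbxa-169 0.090 in aging adults. The cause was not tested beyond the construction given.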
